A study of Mus musculus with 72 samples.

Results

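The Hox genes of female mouse embryonic stem cells (mESCs) were followed in chromatin-associated RNA from the undifferentiated state to day 52 of differentiation toward neural precursor cells (NPCs). A member was any gene of the count files whose symbol is Hoxa, Hoxb, Hoxc or Hoxd followed by a number only, which gave 39 of the 22556 genes counted. The cells carried 1 Dom or 129S and 1 Castaneus (Cast) copy of each chromosome, and on 1 X chromosome the endogenous Xist promoter had been replaced by a promoter that answers to doxycycline, on the 129S allele in iXist-ChrX-Dom and on the Cast allele in iXist-ChrX-Cast. The groups compared were 5 single clones: the wild-type (WT) Dom line and its SmcHD1 knockout (KO) clone A3, and the WT Cast line and its SmcHD1 KO clones D5 and G6. The KO was made with Cas9 and guides to internal exons of Smchd1, which leaves its RNA in place, so that RNA does not check the genotype: the late libraries held 217 to 537 RPM of Smchd1 in the KO clones (n = 10) and 360 to 648 RPM in the WT lines (n = 7), where RPM is fragments scaled to 1000000 fragments assigned to genes. Every culture other than the undifferentiated ES samples received doxycycline, and so expressed Xist, for the number of days in its label, WT lines included. Per the study's methods, cells grew attached until day 7. They were then kept in suspension with the growth factors EGF and FGF, and from day 10 attached again with both factors. Between samples up to day 7 and those of day 15 and later, time and these culture conditions therefore cannot be told apart. Days 2, 3, 5 and 7 had 2 or 3 replicates per clone. Days 15, 21 and 35 (and 52 in the Dom line) had 1 replicate per clone and are called late. That of G6 on day 35 was made of 2 libraries. ES libraries existed for the KO clones only (2, 2 and 1). The labels do not say that replicates were separate cultures, so each p-value measures the spread between these samples, which may be partly technical.

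Hox genes encode homeodomain transcription factors that give the body axis its regional identity. Mammals carry them in the clusters HoxA, HoxB, HoxC and HoxD, in which genes are numbered by paralogue group, and genes with low numbers at the 3′ end are used earlier in development and nearer the head than genes with high numbers at the 5′ end. They are held silent in ES cells by Polycomb complexes, are opened by retinoic acid, Wnt and Cdx factors, and bind DNA together with the TALE homeodomain cofactors Pbx and Meis. In the nervous system Hox genes are active in hindbrain and spinal cord and silent in forebrain and midbrain. SmcHD1 is a noncanonical SMC protein of the inactive X chromosome that is also known to act at Hox clusters.

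In the mm10 annotation of the files HoxA lay at chr6:52155367-52260880 on the minus strand with 11 members, HoxB at chr11:96194361-96368253 with 10, HoxC at chr15:102921131-103036852 with 9 and HoxD at chr2:74668310-74765142 with 9, the last 3 on the plus strand. Fragments were counted over whole transcripts and those overlapping more than 1 gene on a strand were not assigned. Hoxa4, Hoxa5 and Hoxa6 lie inside the span of Hoxa3, and Hoxd4 inside that of Hoxd3, so these 4 members had 0 fragments in all 65 replicates and 35 members could be counted. The same rule removed 16.2% of the span of Hoxa3 and 19.8% of that of Hoxd3, for which the levels below were not corrected.

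The table of RefSeq promoters (GRCm38.p6, 250 bases before to 50 after the start) held 24 promoters of 22 members. Their median was 14.5 CpG dinucleotides (4 to 45), against 7 over all 32841 promoters of that length, and 70.8% against 43.5% held 10 or more. The letters TGATNNAT, a form of the joint Pbx and Hox site, were found on either strand in 4 of the 24 (16.7%, against 8.85% of all promoters), those of Hoxa2, Hoxb1, Hoxb8 and a second start of Hoxd11. The promoters of Hoxb1, Hoxd3, Hoxd10 and Hoxa9 are shown because the results below turn on these genes, each 5′ to 3′ on the gene's strand. Capitals mark the TGATNNAT match in Hoxb1 and CpG dinucleotides in the other three, of which Hoxd3 holds 20, Hoxd10 22 and Hoxa9 only 4.
Hoxb1, chr11:96365508-96365807, plus strand: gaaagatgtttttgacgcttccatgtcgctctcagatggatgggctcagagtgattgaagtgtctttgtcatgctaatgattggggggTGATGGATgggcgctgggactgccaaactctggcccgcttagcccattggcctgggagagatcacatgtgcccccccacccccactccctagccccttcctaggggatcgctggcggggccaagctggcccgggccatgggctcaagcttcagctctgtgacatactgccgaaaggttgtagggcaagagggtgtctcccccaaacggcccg
Hoxd3, chr2:74711743-74712042, plus strand: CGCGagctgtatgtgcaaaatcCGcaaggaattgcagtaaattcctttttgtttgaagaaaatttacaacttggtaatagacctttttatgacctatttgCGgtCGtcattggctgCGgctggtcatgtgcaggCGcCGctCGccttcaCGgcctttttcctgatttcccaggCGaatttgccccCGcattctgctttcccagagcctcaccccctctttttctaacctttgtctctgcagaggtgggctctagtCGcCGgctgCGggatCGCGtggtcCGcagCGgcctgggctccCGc
Hoxd10, chr2:74691641-74691940, plus strand: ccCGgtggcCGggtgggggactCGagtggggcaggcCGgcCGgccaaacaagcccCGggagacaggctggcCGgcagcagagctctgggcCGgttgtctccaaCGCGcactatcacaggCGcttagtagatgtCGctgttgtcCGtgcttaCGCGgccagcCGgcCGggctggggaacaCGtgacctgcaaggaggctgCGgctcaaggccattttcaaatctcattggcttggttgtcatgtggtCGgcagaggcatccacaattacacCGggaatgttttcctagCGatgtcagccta
Hoxa9, chr6:52227321-52227620, minus strand: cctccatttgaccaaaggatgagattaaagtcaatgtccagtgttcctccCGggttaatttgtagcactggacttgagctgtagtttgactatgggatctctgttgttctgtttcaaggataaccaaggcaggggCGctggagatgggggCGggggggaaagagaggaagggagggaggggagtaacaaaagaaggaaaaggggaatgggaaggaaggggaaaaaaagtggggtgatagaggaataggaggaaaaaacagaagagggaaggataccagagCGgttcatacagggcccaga

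Depth ran from 9344054 to 56290046 assigned fragments per replicate (median 25726458), so 3 fragments, taken as the floor of detection, were worth 0.0533 to 0.321 RPM, which covers counting error only. The defining genes of the NPC label were low in the late cultures: Pax6 was 0.207 to 9.39 RPM and Hes5 0 to 2.72 RPM, Sox1 and Sox2 could not be counted because other genes overlap them, and of the 7 neural precursor genes listed Vim and Nes made up most of the sum of 129 to 914 RPM. All 8 fibroblast genes listed were detected in every late replicate, with a summed level of 379 to 16714 RPM (Col3a1 165 to 11195 RPM), against at most 150 RPM in any earlier replicate. The other marker lists summed late to 2.82 to 187 RPM for pluripotent cells (ES 1201 to 1807), 8.21 to 184 for mesoderm, 11.5 to 157 for endoderm, 1.35 to 63.6 for neural crest and 4.46 to 22.1 for forebrain and midbrain. The cultures had been started from cells grown on fibroblast feeders, which were removed by plating. The late samples are therefore called by their day, and as these are bulk samples, fewer cells of a type and less RNA per cell cannot be told apart.

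Hox transcription was near the floor in ES cells and through the first days, and rose in the late cultures of all 5 clones. Summed over the 35 countable members, the level was 3.68 to 15.1 RPM in ES cells (n = 5), 1.34 to 5.56 RPM on days 2 and 3 (n = 21), 1.67 to 239.7 RPM on days 5 and 7 (n = 22) and 57.2 to 298.7 RPM late (n = 17). The median of the last period, 127.9 RPM, stood beside 2.60 RPM on days 2 and 3. The late values overlapped those of days 5 and 7 through 1 replicate alone, A3 on day 7 replicate 2 (239.7 RPM), since the highest of the other 47 replicates up to day 7 was 28.6 RPM. The sum is not corrected for gene length, and long genes weigh most in it. Late medians were 39.5 RPM for Hoxd3, 23.1 RPM for Hoxa3 and 77.3 RPM for paralogue groups 1 to 3. In A3 on day 7 replicate 2 these groups gave 201.6 RPM.

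The late level was higher at each later sampled day in Cast WT and not in the other 4 clones. The late days of a KO clone did not share 1 replicate number. A3 was replicate 2 on day 15 and replicate 1 afterwards, and D5 and G6 were replicate 1 on day 15 and replicate 2 afterwards. The late WT labels give no number, so the values of a clone may not follow 1 culture through time. In the Dom WT line it was 134 RPM on day 15, 74.8 on day 21, 293 on day 35 and 245 on day 52, and in A3 it was 209.9, 128, 299 and 134 RPM on the same days. In the Cast line the 3 late days gave 82.6, 127, 138 RPM in the WT, 82.9, 191, 58.4 RPM in D5 and 105, 57.2, 64.1 RPM in G6. Means over the late days were 187 ± 99.9 RPM (SD, n = 4) in Dom WT, 193 ± 80.0 (n = 4) in A3, 116 ± 29.3 (n = 3) in Cast WT, 111 ± 70.4 (n = 3) in D5 and 75.5 ± 26 (n = 3) in G6. The late values of A3 (128 to 299 RPM) and G6 (57.2 to 105 RPM), clones of different lines, did not overlap, and those of each other pair of clones did; differences in this sum were not tested.

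**Figure D1:**
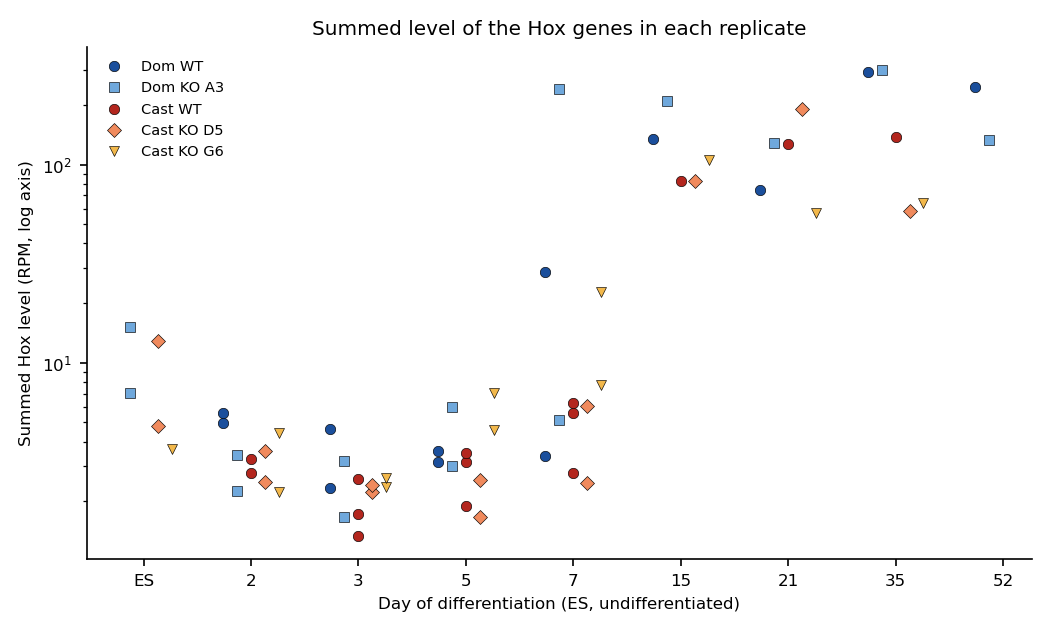
Summed level of the 35 countable Hox genes (RPM, log axis) in each of the 65 replicates by day of differentiation, coloured by clone. All 17 late replicates lie at 57.2 RPM or above, and of the 48 earlier ones only A3 on day 7 replicate 2, at 239.7 RPM, lies that high.

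The sum of fibroblast genes also rose late. The replicates with the largest sums of either kind and with the lowest fibroblast sum were as follows. The largest Hox sums, those of A3 and Dom WT on day 35, came with fibroblast sums of 1308 and 2405 RPM. D5 on day 35 had the largest fibroblast sum, 16714 RPM, and a Hox sum of 58.4 RPM, while Cast WT on day 15, with the lowest fibroblast sum of 379 RPM, had 82.6 RPM of Hox RNA. The part that such cells take in the Hox levels was not tested.

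Among single genes the late rise was broad. The contrast of late against days 5 and 7 was tested within each clone with edgeR's quasi-likelihood test over all genes (Benjamini-Hochberg adjusted p below 0.05), and 32 of the 39 members passed the filter on low counts in each line. Most passed it through the late libraries, so the counts that follow describe tested members and are not a share of all members. Higher late were 24 in Dom WT (12.6% of all genes tested were called higher), 18 in A3 (18.8%), 26 in Cast WT (17.4%), 29 in D5 (19.5%) and 23 in G6 (20%). The median log2 fold change of the tested members was 4.72, 2.76, 5.32, 5.96 and 3.34 in that order, beside −0.05 to 0.02 over all genes. Hoxb1 in A3 was the only member called lower, where 15.3% of all genes were (log2 fold change −3.51 ± 1.08 SE, adjusted p = 0.0186 in edgeR's test).

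Called higher late in all 5 clones were 15 members: Hoxa9, Hoxa10, Hoxa11, Hoxb5, Hoxb6, Hoxc4, Hoxc5, Hoxc6, Hoxc8, Hoxc9, Hoxc10, Hoxd8, Hoxd9, Hoxd10 and Hoxd11, all from paralogue groups 4 to 11. The list depends on A3, where day 7 replicate 2 held 201.6 RPM of groups 1 to 3. Without that replicate 27 in place of 18 members were called in A3. How far the absence of groups 1 to 3 rests on it was not tested. The share of all genes called in all 5 clones was not counted. A further 6 were called in 4 clones (Hoxa3, Hoxa7, Hoxb3, Hoxb4, Hoxb9 and Hoxc11), 6 in 3 clones (Hoxa2, Hoxb2, Hoxb7, Hoxd3, Hoxd12 and Hoxd13), Hoxd1 in 2 and Hoxb8 in 1. Hoxb1, Hoxc12 and Hoxc13 were among those called higher in no clone.

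Hoxd10, whose product patterns lumbar motor neurons and the limb, had the widest separation. Its late values were 4.42, 3.92, 19.1 and 7.14 RPM in Dom WT on days 15, 21, 35 and 52, and 11.4, 3.42, 14 and 1.35 RPM in A3. They were 0.809, 5.96 and 5.83 RPM in Cast WT, 2.61, 12.8 and 1.05 RPM in D5 and 4.92, 2.32 and 0.959 RPM in G6. Every one of these exceeded every earlier replicate, of which A3 on day 7 replicate 2 was the highest at 0.674 RPM, and Hoxd10 was the only member for which this held in all 65 replicates. Without that replicate 13 members separated in this way (Hoxa2, Hoxa3, Hoxa9, Hoxa10, Hoxb3, Hoxb5, Hoxb6, Hoxc5, Hoxc6, Hoxc8, Hoxd8, Hoxd9 and Hoxd10). The log2 fold change of Hoxd10 was 7.34 ± 1.24 SE in Dom WT, 5.57 ± 1.09 in A3, 8.10 ± 0.94 in Cast WT, 7.22 ± 0.95 in D5 and 5.40 ± 0.88 in G6.

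Hoxd11, a gene of limb and posterior spinal cord, rose from 0.015 ± 0.024 RPM on days 5 and 7 (n = 6) to 6.33 ± 4.62 RPM late (n = 3) in Cast WT (log2 fold change 8.70 ± 0.89 SE, edgeR adjusted p = 8.6e-09). Hoxa10, which acts in posterior axial patterning and the female reproductive tract, rose in Dom WT from 0.075 ± 0.078 to 11.3 ± 8.13 RPM (n = 4 each; 7.35 ± 1.07, adjusted p = 1.7e-04). Hoxa9, a thoracic to lumbar gene also used in blood precursors, was at 0 in all 4 replicates of D5 on days 5 and 7 and at 1.54, 4.89 and 1.48 RPM late, at least 126-fold higher than the floor of 3 fragments over the group. In the same clone and against the same kind of floor Hoxc10 was at least 68.6-fold and Hoxc6 at least 66.4-fold higher.

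**Figure D2:**
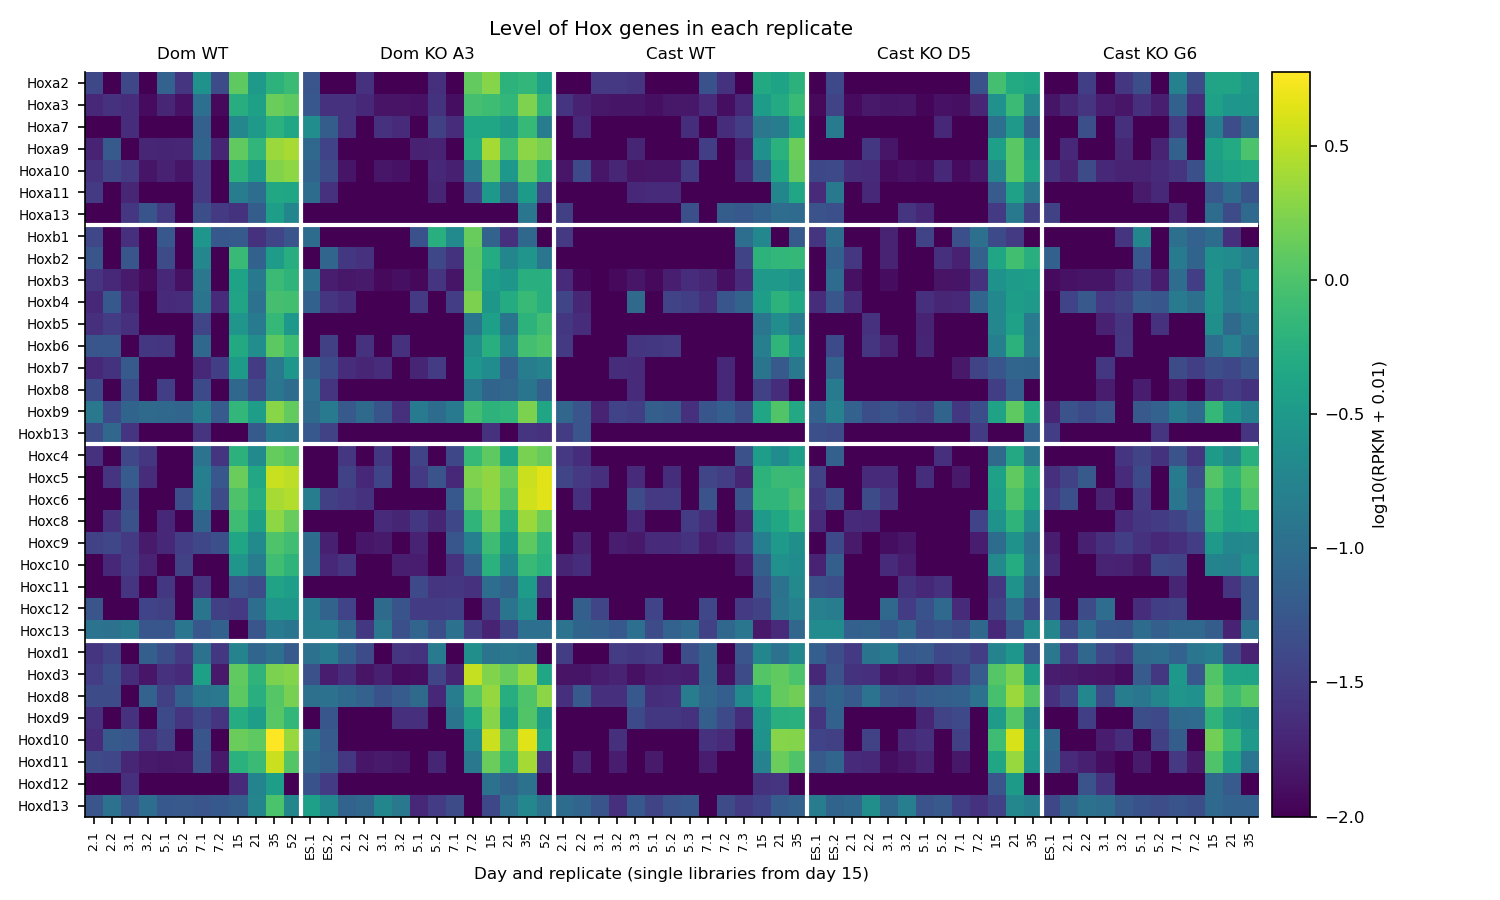
Heat map of 34 countable Hox genes (rows, in cluster and paralogue order) over 65 replicates (columns, by clone and then by day and replicate), coloured by log10(RPKM + 0.01). The columns from day 15 on are bright in all 4 clusters of each clone, and the brightest earlier column is A3 on day 7 replicate 2, in the low and middle paralogue groups.

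Levels were compared between genes per length, as RPKM (RPM per kilobase of the deposited transcript span). Over the 17 late replicates Hoxd10 had the highest mean, 1.87 ± 1.65 RPKM (0.252 to 5.94), followed by the HoxC neighbours Hoxc5, 1.58 ± 1.27 (0.381 to 4.40), and Hoxc6, 1.42 ± 1.25 (0.341 to 4.42). Hoxd8 was at 1.22 ± 0.53, Hoxa9 at 1.15 ± 0.786, Hoxd3 at 1.13 ± 0.56 and Hoxd11 at 1.03 ± 0.961 RPKM. Neighbours in this order did not differ beyond their spread. Their medians were lower than the means, at 1.37 (Hoxd10), 1.12 (Hoxc5) and 0.949 (Hoxc6) RPKM.

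The strongest HoxB members late were Hoxb9, 0.743 ± 0.499 RPKM (median 0.615), and Hoxb6, 0.446 ± 0.353 RPKM (median 0.282). In HoxA, Hoxa10 followed Hoxa9 at 0.753 ± 0.581 RPKM (0.071 to 2.01). At the other end of the order stood Hoxb13 at 0.024 ± 0.040, Hoxb1 at 0.040 ± 0.047, Hoxb8 at 0.046 ± 0.037, Hoxc13 at 0.060 ± 0.055 and Hoxd12 at 0.076 ± 0.105 RPKM. The lowest members thus came from the 3′ end (Hoxb1, the rhombomere 4 gene), from the middle and from the 5′ end of the clusters.

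**Figure D3:**
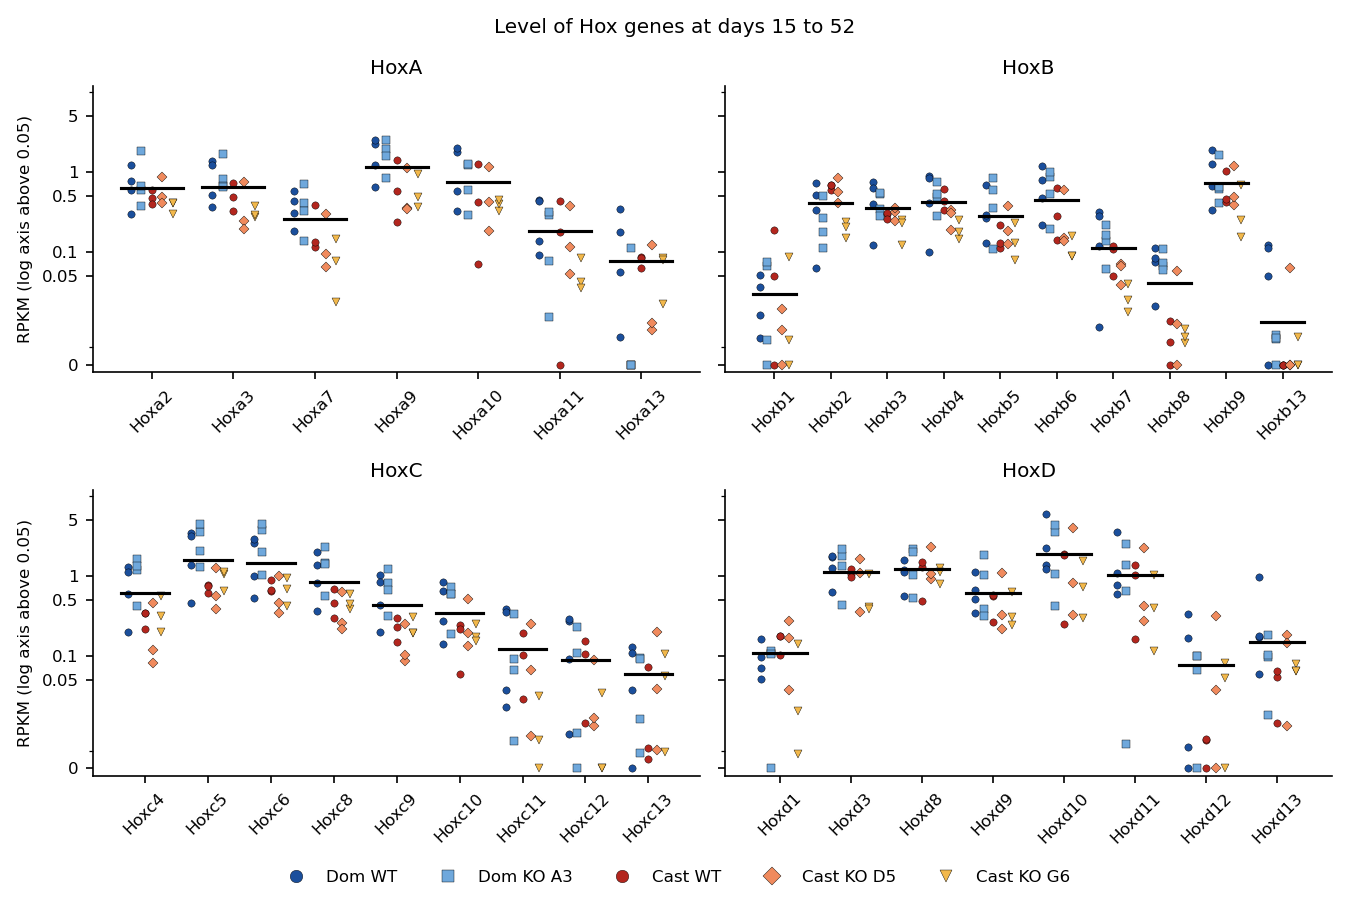
Late RPKM of 34 countable Hox genes by paralogue group in each cluster, with every late replicate as a point, coloured by clone, and the mean of all 17 as a bar (axis logarithmic above 0.05). Hoxd10, Hoxc5 and Hoxc6 have the highest means (1.87, 1.58 and 1.42 RPKM) and Hoxb13 the lowest of the countable members (0.024 RPKM).

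By cluster, HoxD gave the largest median share of the summed RPKM late, 34.7% (13.8 to 48.0%), then HoxC 26.2% (15.7 to 55.1%), HoxA 22.8% (15.2 to 31.3%) and HoxB 15.2% (10.2 to 26.9%). By position, paralogue groups 9 to 13 gave 41.5% (20.8 to 52.6%), groups 4 to 8 gave 37.4% (29.4 to 69.4%) and groups 1 to 3 gave 20.4% (9.78 to 40.2%). The ranges overlapped for each pair of clusters and of position classes. These sums run over unequal numbers of genes and leave out the members that could not be counted. Counted were 8 of 8 members in groups 1 to 3, 11 of 15 in groups 4 to 8 and 16 of 16 in groups 9 to 13. In HoxA 8 of 11 and in HoxD 8 of 9 were counted, and all members of HoxB and HoxC. The order of the shares was not corrected for this.

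The make-up varied between cultures. In A3 on day 52 HoxC supplied 55.1% and groups 4 to 8 supplied 69.4% of the summed RPKM, each the highest of the 17 late replicates. The 5′ HoxD genes Hoxd10 to Hoxd13 supplied 16.5% of the HoxD sum there, the lowest late value, against a median of 45.8% and a maximum of 73.0% in Dom WT on day 35. Hoxd11 carried much of this, at 0.101 RPM in A3 and 7.98 RPM in Dom WT on day 52. Cast WT on day 15 also had little 5′ HoxD RNA (18.6% of HoxD) and 21.3% in groups 9 to 13.

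In the first week few members moved in most clones, and those called differed between clones. Higher on days 5 and 7 than on days 2 and 3 were 1 member in Dom WT (7.26% of all genes were called higher), 2 in Cast WT (17.1%; among them Hoxd8), 2 in D5 (12.8%; among them Hoxd9), 8 in G6 (13.5%) and 19 in A3 (14.4%) of 32 tested. Hoxd13 was called lower in A3 and D5, where 8.58% and 12.7% of all genes were. Hoxa2, Hoxb1, Hoxb2, Hoxb3, Hoxc8, Hoxd3 and Hoxd9 were among the 8 in G6, and Hoxd3 went from 0.154 ± 0.056 to 3.69 ± 4.57 RPM (log2 fold change 4.70 ± 0.93 SE, edgeR adjusted p = 5.1e-04, n = 4 each). Its 4 values on days 5 and 7 were 1.93, 0.649, 10.5 and 1.69 RPM, and without the highest, day 7 replicate 1, 5 members of G6 were called in place of 8.

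A3 on day 7 replicate 2 had Hox RNA at a late level and its partner did not. Its Hox sum was 239.7 RPM and that of replicate 1 was 5.1 RPM. Day 7 sums elsewhere were 28.6 and 3.4 RPM in Dom WT, 5.6, 2.8 and 6.3 RPM in Cast WT, 2.5 and 6.1 RPM in D5 and 22.7 and 7.7 RPM in G6. It had the highest day 7 value of the 11 replicates in 28 of the 35 countable members, the exceptions being Hoxa13, Hoxb13, Hoxc11, Hoxc12, Hoxc13, Hoxd12 and Hoxd13, all from the 5′ end.

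Hoxd3 reached 121 RPM in that replicate (0.113 to 13.5 RPM in the other 10), Hoxa3 39 RPM and Hoxb3 30.4 RPM, the group 3 genes that pattern the hindbrain and neck. Hoxb1 was 3.37 RPM against 0 to 0.691 RPM elsewhere on day 7. Toward the 5′ end Hoxa9 was 2.15, Hoxa10 1.28, Hoxd11 0.899 and Hoxd10 0.674 RPM, while Hoxd12 and Hoxd13 had no fragment. Paralogue groups 1 to 3 gave 47.6% of its summed RPKM, more than in any late replicate, groups 4 to 8 gave 40.3% and groups 9 to 13 gave 12.1%, less than in any late replicate. Hoxd10 to Hoxd13 gave 6.09% of HoxD.

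**Figure D4:**
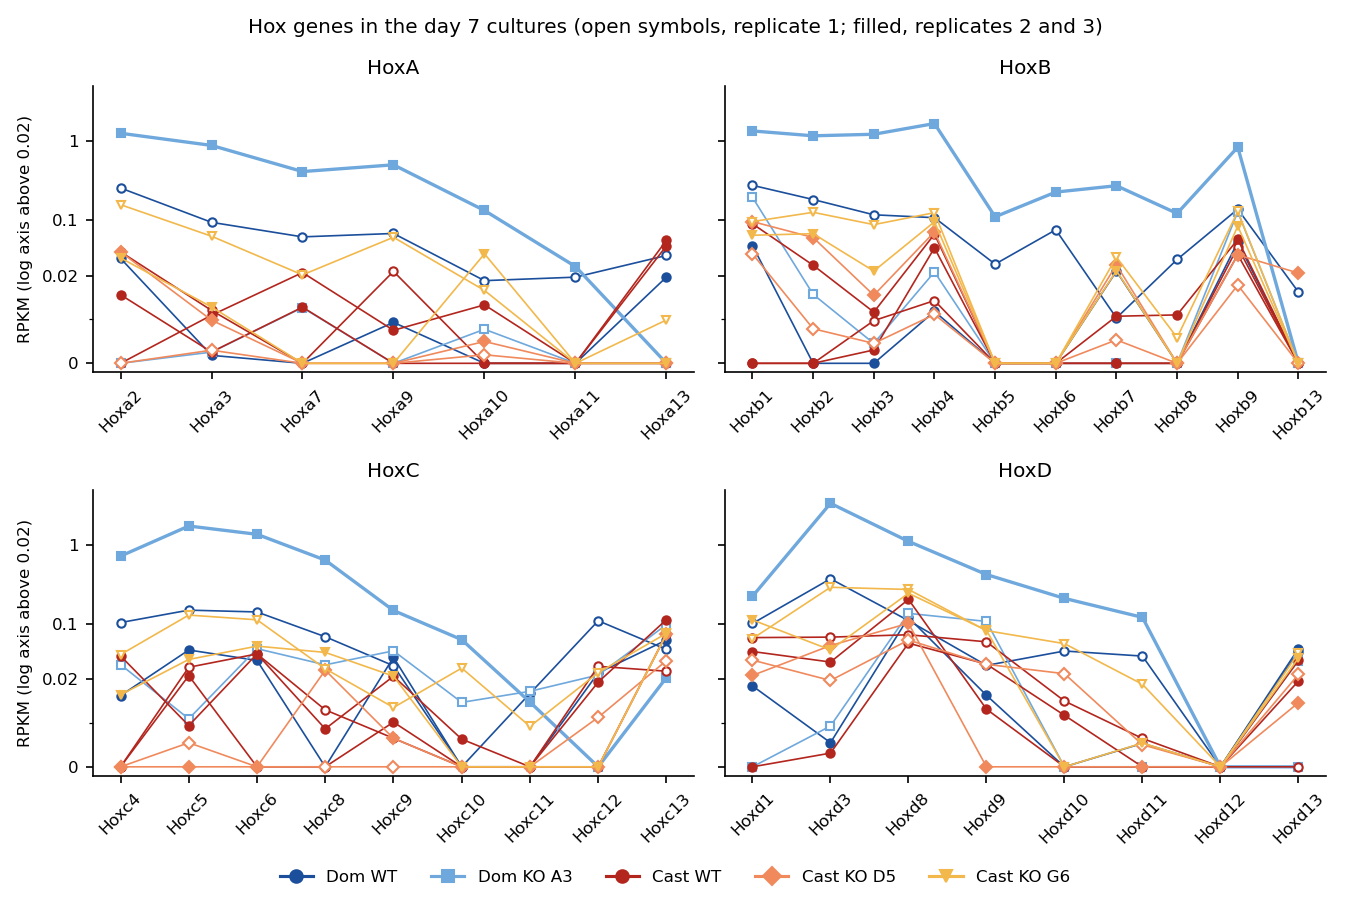
Level of 34 countable Hox genes in the 11 replicates of day 7 (RPKM, on a scale that is logarithmic above 0.02), by cluster, with replicates joined by lines, replicate 1 as open symbols and A3 replicate 2 as the thick line. It is the highest point for 27 of these genes, with Hoxd3 at 3.34 RPKM, and not for 7 genes of paralogue groups 11 to 13.

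Some genes of the lists described below were also highest in A3 day 7 replicate 2, and how many others of these lists were was not counted. For replicate 2 over replicate 1 of A3 on days 2 to 7, 0 genes of these lists were called (0.122% of all genes). The median log2 fold change was 0.46 over 9 TALE cofactors and 1.16 over 10 trunk and caudal genes. It was −0.0002 over 13 retinoic acid genes and −0.28 over 4 hindbrain genes. Aldh1a2, which makes retinoic acid, was 183 RPM in A3 day 7 replicate 2 and 4.38 to 62.4 RPM in the other day 7 replicates, Meis1 was 281 against 17.9 to 96.5 RPM, Meis2 was 766 against 35.4 to 268 RPM and Cdx2 was 7.13 against 0.131 to 2.15 RPM. Its fibroblast sum, 108 RPM, lay within the day 7 range of 31.4 to 150 RPM. The A3 result for the first week rested on this replicate: without it 2 members were called, among them Hoxb1, in place of 20, and 27 instead of 18 were called higher late than on days 5 and 7, with none lower.

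Before differentiation the Hox sum was above that of days 2 and 3 in each ES library of A3 and D5, but within their range in G6. The edgeR calls of single members came in D5 alone and rested on 1 ES library. In D5, 7 members were called lower on days 2 and 3 than in ES (13.8% of all genes were called lower), namely Hoxa7, Hoxa11, Hoxb3, Hoxb7, Hoxb8, Hoxd9 and Hoxd11. Hoxb3 read 0 and 2.04 RPM in the ES pair and 0 to 0.085 RPM on days 2 and 3 (log2 fold change −4.36 ± 1.13 SE, edgeR adjusted p = 0.00614), and Hoxb8 read 0 and 0.454 RPM in the same pair. All 7 calls were lost without ES replicate 2 of D5. In A3, 0 members were called (20.2% of all genes; 7 at unadjusted p below 0.05; 6 by DESeq2) and in G6, with 1 ES library, 0 (7.72%; 4 unadjusted; 1 by DESeq2). ES sums were 15.1 and 7.07 RPM in A3, 4.8 and 12.9 RPM in D5 and 3.68 RPM in G6. On days 2 and 3 the sums were 1.67 to 3.44, 2.24 to 3.58 and 2.24 to 4.41 RPM in these clones. The median log2 fold change of the tested members was −2.10 in A3, −1.69 in D5 and 1.38 in G6. Over all genes it was 0.01, −0.01 and 0.08. In A3, 5751 of 17113 genes had an unadjusted p below 0.05.

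The SmcHD1 KO clones were compared with WT in the late cultures with the day as a term, and no member passed in either line. In the Dom line A3 alone stood against Dom WT, and in the Cast line D5 and G6 against Cast WT. The late days of a clone served as its samples. Genotype and clone therefore cannot be told apart in this or the other KO contrasts. In the Dom line 0 of 32 tested members were called (0% of 15229 genes; 6 at unadjusted p below 0.05; 1, Hoxc6, by DESeq2), with a median log2 fold change of 0.17 beside −0.00 over all genes and 20 of 32 above 0. In the Cast line 0 of 26 were called (0% of 14963 genes; 1 unadjusted; 0 by DESeq2), with a median of −0.13 beside −0.01 and 9 of 26 above 0. Unadjusted p was below 0.05 in 1622 of 15229 genes in the Dom line and 1898 of 14963 in the Cast line.

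The HoxC genes of the thoracic and cervical region had the smallest p-values in the Dom line. Hoxc6 measured 4.66, 2.39, 8.77 and 10.3 RPM in A3 on days 15, 21, 35 and 52 and 2.27, 1.21, 5.92 and 6.67 RPM in Dom WT. A3 was higher on each day, while the 2 ranges overlapped across days (log2 fold change 0.93 ± 0.18 SE, edgeR adjusted p = 0.462). Hoxc4 was 2.82 ± 1.27 RPM in A3 and 1.98 ± 1.23 RPM in Dom WT (n = 4 each; 0.77 ± 0.25 SE). Members higher in A3 on all 4 days were Hoxc4, Hoxc5, Hoxc6 and Hoxc8, which neighbour each other, and members lower on all 4 were Hoxa13 and Hoxd13. Of all genes tested in this contrast 0% were called. The share of all genes that were higher, or lower, in A3 on all 4 days was not counted. These lists are therefore not read as a result about Hox genes.

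In the Cast line Hoxb4 had the smallest p, at 0.796 ± 0.261 RPM in the KO clones (n = 6) and 1.57 ± 0.469 RPM in Cast WT (n = 3; log2 fold change −0.91 ± 0.34 SE, edgeR adjusted p = 0.358). On the 3 shared days D5 lay below Cast WT in Hoxb4, Hoxc9 and Hoxc12 and above it in Hoxc13. G6 lay below in 9 members (Hoxb2, Hoxb3, Hoxb4, Hoxb6, Hoxb7, Hoxc11, Hoxc12, Hoxd1 and Hoxd3) and above in Hoxd13. How large a share of all genes lay below, or above, the WT on all 3 days was not counted. These lists are therefore not read as a result about Hox genes. Hoxb4 was lower in both clones, at 0.633, 1.14 and 1.05 RPM in D5 and 0.863, 0.491 and 0.604 RPM in G6, against 1.15, 2.08 and 1.48 RPM in the WT.

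The KO effect was also compared between the lines. Late, 0 of 31 members differed (0% of all genes; 2 unadjusted; 0 by DESeq2), the smallest p-values being those of Hoxd13 (difference of log2 fold changes, Cast minus Dom, 2.08, edgeR adjusted p = 0.862) and Hoxc6 (−1.06, adjusted p = 0.869). On days 2 to 7, 0 of 9 differed (0.288% of all genes; 0 unadjusted; 0 by DESeq2). Unadjusted p was below 0.05 in 883 of 15642 genes late and in 1424 of 15974 on days 2 to 7.

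**Figure D5:**
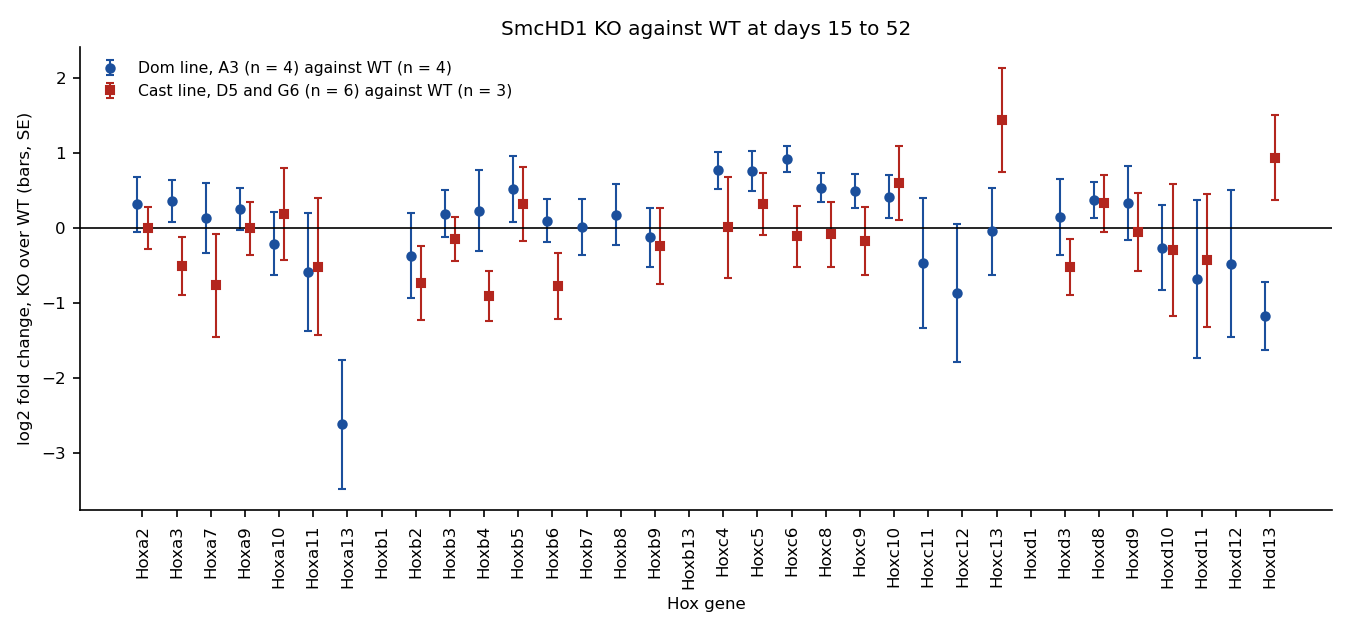
Log2 fold change of KO over WT in the late cultures for tested Hox genes, Dom line and Cast line, with bars of 1 SE. Hoxc4, Hoxc5, Hoxc6 and Hoxc8 lie above 0 in the Dom line, Hoxb4 lies at −0.91 in the Cast line, and no gene has an adjusted p below 0.05.

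On days 2 to 7, few members passed the filter. In the Dom line 0 of 7 were called (0.803% of all genes; 2 unadjusted; 0 by DESeq2), with Hoxb1 at 0.662 ± 1.19 RPM in A3 and 0.130 ± 0.232 RPM in Dom WT (n = 8 each; log2 fold change 2.25 ± 0.85 SE, edgeR adjusted p = 0.246). In the Cast line 0 of 5 were called (0.381%; 2 unadjusted; 0 by DESeq2), with Hoxd3 at a log2 fold change of 1.19 ± 0.52 (edgeR adjusted p = 0.411) and Hoxd8 at 0.84 (edgeR adjusted p = 0.460). Unadjusted p was below 0.05 in 2134 of 15443 genes in the Dom line and 1528 of 15499 in the Cast line. With the replicate number as a block, 1 was called in the Cast line, Hoxd8 (1.74, edgeR adjusted p = 0.0339). The numbers pair D5 with G6 on each of these days, but either of them with Cast WT on day 2 alone.

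The WT lines differed from each other in 1 of 4 members tested on days 2 to 7, where 26.3% of all genes did. Hoxd3 was 0.496 ± 0.718 RPM in Cast WT (n = 11) and 2.17 ± 4.58 RPM in Dom WT (n = 8; log2 fold change of Cast over Dom −1.72 ± 0.61 SE, edgeR adjusted p = 0.0429). The ranges overlapped, since Dom WT on day 7 replicate 1 held 13.5 RPM and the other 7 Dom replicates 0.173 to 1.31 RPM. The call was lost when Dom WT day 2, 3, 5 or 7 replicate 1, day 5 replicate 2, or Cast WT day 2 replicate 2, day 3 replicate 3, day 5 replicate 1 or day 7 replicate 2 or 3 was left out. Late, 0 of 29 differed (0% of all genes; 1 unadjusted; 0 by DESeq2), the smallest p-values being those of Hoxd13 (−2.26) and Hoxd12 (−3.23). Unadjusted p was below 0.05 in 613 of 14867 genes late.

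Clones of 1 genotype differed as well. On days 2 to 7, D5 was lower than G6 in 3 of 6 members tested, where 10.8% of all genes were called lower: Hoxb3 at 0.093 ± 0.127 against 0.509 ± 0.706 RPM (n = 8 each; log2 fold change −2.67 ± 0.56 SE, edgeR adjusted p = 0.0045), Hoxa3 at 0.185 against 0.742 RPM (−2.01 ± 0.44, adjusted p = 0.00559) and Hoxd8 at 0.218 against 0.490 RPM (−1.19 ± 0.35, adjusted p = 0.0265). With the replicate block, by which these clones are paired, 4 were called. Of the TALE cofactors 6 of 9 were also lower in D5, among them Meis1 (−1.73) and Meis2 (−1.51). Late, 0 of 25 members differed (0% of all genes; 1 unadjusted; 0 by DESeq2), with Hoxb2 at 1.45 ± 0.528 RPM in D5 and 0.469 ± 0.105 RPM in G6 (n = 3 each; 1.44). Unadjusted p was below 0.05 in 1583 of 14638 genes late.

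Cultures of 1 clone, as far as replicate numbers mark them, were compared on days 2 to 7 by replicate 2 over replicate 1. Called were 0 of 6 members in Dom WT (6.3% of all genes; 2 unadjusted; 0 by DESeq2), 0 of 9 in A3 (0.122%; 3; 0), 0 of 3 in Cast WT (0.58%; 0; 0), 0 of 6 in D5 (14.8%; 1; 0) and 0 of 7 in G6 (1.16%; 1; 1, Hoxd3). The sizes were large for early genes all the same: Hoxb3 in Dom WT −2.92 (edgeR adjusted p = 0.106), Hoxb1 in A3 3.09 (edgeR adjusted p = 0.163) and Hoxd3 in G6 −1.90 (edgeR adjusted p = 0.0551). Unadjusted p was below 0.05 in 4074 of 15529 genes in Dom WT and 2075 of 15516 in A3. In Cast WT, D5 and G6 it was so in 2417 of 15173, 5015 of 15688 and 2958 of 15331.

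The rest of the pathway was read from fixed lists, of whose 57 names 51 were in the files. Of 9 TALE cofactors tested, late against days 5 and 7, 4, 1, 4, 5 and 4 were called higher in Dom WT, A3, Cast WT, D5 and G6, and 0, 0, 0, 1 and 1 lower. Of all genes 12.6%, 18.8%, 17.4%, 19.5% and 20% were called higher in the same order, a share that 1 of 9 in A3 does not exceed. Meis1 rose in all 5 clones (log2 fold changes 2.46 to 5.36) and Meis2 in 4 (2.73 to 3.51). Of 13 retinoic acid genes 5, 5, 6, 6 and 5 were higher and 0, 1, 0, 1 and 1 lower, with the binding protein Crabp1, the receptors Rarb, Rara and Rxra and the degrading enzyme Cyp26b1 higher in all 5 clones. Of 4 hindbrain genes tested, 1, 2, 1, 2 and 2 were higher and 1, in A3, lower, with Egr2, the gene of rhombomeres 3 and 5, higher in all 5 (3.36 to 5.80).

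Trunk and caudal genes moved in the first week. Of 11 tested, 6, 9, 5, 3 and 5 were higher on days 5 and 7 than on days 2 and 3 in the same order of clones and none was lower, where 7.26%, 14.4%, 17.1%, 12.8% and 13.5% of all genes were called higher, with T (4.23 to 7.21) and Wnt3a (2.28 to 6.52) called in all 5 clones. Late, 1, 0, 1, 1 and 0 of these rose further and 1, 2, 0, 0 and 2 fell. Aldh1a2 was also called in all 5 clones in the first week (4.05 to 5.96). Of 5 activating chromatin regulators 1, 0, 1, 1 and 1 were higher late and none lower, and 1 of 5 is close to the share of all genes. In the KO against WT contrasts 0 genes of these lists were called in either line and period.

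Of 13 listed noncoding transcripts inside the clusters 7 were in the files. Of those tested 3 of 5, 3 of 5, 3 of 4, 4 of 4 and 1 of 4 were called higher late, including Hoxa11os, antisense to Hoxa11, in all 5 clones (4.29 to 7.70). Halr1, transcribed beside the 3′ end of HoxA, went the other way at the start: it was 7.62 to 18.9 RPM in the 5 ES libraries and 0.125 to 2.68 RPM on days 2 and 3 of the same clones, lower in A3, D5 and G6 (−3.81, −3.79 and −4.21).

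The genes flanking the clusters moved in both directions late. Of 24 neighbours, 3 on each side of each cluster, 2, 5, 1, 5 and 3 were called higher late than on days 5 and 7 in the order above and 2, 3, 1, 3 and 2 lower, and their median log2 fold changes were −0.03 to 0.05. Of all genes 12.6% to 20% were called higher late in these clones, and the difference between neighbours and members was not tested. Mtx2, a mitochondrial gene 60.7 kb from HoxD, was 95.2 to 136 RPM late and 91.3 to 135 RPM on days 2 and 3. Cbx5 beside HoxC was called lower (−0.86 to −0.64) and Snx11 beside HoxB higher (0.52 to 0.98) in all 5 clones. None of the 24 was called between KO and WT late.

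Fragments over a sequence difference between the strains gave the share of the Cast allele. In the late replicates HoxA lay at 0.462 to 0.526 (median 0.492; 127 to 1078 allelic fragments per replicate), HoxD at 0.459 to 0.566 (median 0.500), HoxC at 0.235 to 0.574 (median 0.495; 17 to 232 fragments) and HoxB at 0.330 to 0.508 (median 0.410; 44 to 291 fragments). Other genes within 5 Mb had median shares of 0.503 at HoxA, 0.492 at HoxB (0.454 to 0.565), 0.477 at HoxC and 0.482 at HoxD. HoxB was below such genes in 16 of 17 late replicates and HoxA in 15, HoxC in 6 and HoxD in 4. Genes near HoxB had a share of 0.492 in Dom WT on day 15 and 0.552 to 0.565 in the other late Dom line replicates. In the Cast line clones their share was 0.454 to 0.498. The HoxB count is thus set against a reference that leaned to Cast in most late Dom line replicates.

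Pooled over the late replicates, Hoxb3 had a Cast share of 0.399 (Wilson 95% interval 0.371 to 0.427, 1170 fragments) and Hoxb9 0.431 (0.386 to 0.477, 457 fragments). Hoxa3 was at 0.498 (0.484 to 0.511, 5402 fragments) and Hoxd3 at 0.502 (0.492 to 0.513, 9054 fragments), while Hoxa10 was at 0.445 (0.419 to 0.472) and Hoxd11 at 0.451 (0.425 to 0.477). The intervals cover counting error only, and whether mapping favours either allele at these genes was not tested. In A3 on day 7 replicate 2 the shares were 0.460 in HoxA, 0.435 in HoxB, 0.515 in HoxC and 0.475 in HoxD, so both alleles gave RNA there too.

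The Cast share of single members was compared between KO and WT where every late replicate had at least 10 allelic fragments. In the Dom line 0 of 6 members differed by limma (0% of all genes; 0 unadjusted), with differences of −0.024 to 0.017. In the Cast line 0 of 5 did (0%; 0 unadjusted), with differences of −0.013 to 0.108, the largest that of Hoxa9 (0.108 ± 0.054 SE, limma adjusted p = 0.678).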

How the data were processed

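Chromatin-associated RNA was measured by stranded total RNA sequencing in 72 libraries. Per the labels and the study's methods the authors mapped reads to an mm10 genome masked at strain differences (STAR 2.4.2a, after Bowtie2 2.3.2 against ribosomal RNA), split alleles with SNPsplit and deposited fragment counts per RefSeq gene made with featureCounts 1.5.2. The deposited tables of X-linked allelic ratio (a fraction) were not used for Hox genes, and 26 per-sample columns there that carry names of the other line's libraries were not used at all. Here R1 and R2 libraries of a replicate were summed, giving 65 replicates with 9344054 to 56290046 fragments. RPM is per 1000000 assigned fragments, and RPKM divides it by the deposited length. Tests used edgeR 4.0.16 (TMM, filterByExpr, quasi-likelihood) and, for allele shares over at least 10 fragments, limma 3.58.1, in R 4.3.3, with adjustment over all genes at 0.05; time contrasts used groups of clone by period within a line. Alternatives were DESeq2 1.42.0, library totals, no filter, R1 and R2 kept apart, each clone alone, the replicate block and leaving out each replicate. The scripts were tested on simulated data. The members, marker lists (pluripotent, neural precursor, fibroblast, mesoderm, endoderm, neural crest, forebrain and midbrain) and pathway lists were chosen with earlier results of these data known. Named were the 2 members of each cluster highest in late RPKM, in each comparison up to 4 called members by fold change, and the 2 smallest p-values where none was called; other members appear in counts or ranges, or were named after their values were seen. Same-numbered replicates of D5 and G6 deviated together on each of days 2, 3, 5 and 7 (correlations 0.298 to 0.680 over 15747 genes), so these numbers pair the samples. Those of Dom WT and A3 did not (−0.665 to −0.299). Those of Cast WT did so on day 2 alone, with D5 (0.583) and G6 (0.662), and ran from −0.234 to 0.098 on days 3, 5 and 7. Counting without overlapping fragments leaves nested genes at 0. Totals and sums cover all members, of which 1 is not reported here by name.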

Additional observations from a re-analysis of the deposited data

How the results depend on the processing

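With library totals in place of TMM the median gene shifted by −0.31 to −0.19 (log2) in the late against days 5 and 7 contrasts and by −0.14 to 0.26 in the others, and no Hox direction named above turned. Of the recomputed counts of called members 279 stayed within 1.5 times the reported count and 47 moved. DESeq2 called 1 member late in the Dom line KO (Hoxc6), 6 in A3 and 1 in G6 (Hoxb2) on days 2 and 3 against ES, and 1 between the replicates of G6 (Hoxd3), where no filter on low counts also gave 1. Without that filter the WT lines differed in 5 members on days 2 to 7 and D5 from G6 in 8. Library totals gave 1 between the replicates of D5 and 1 for Cast WT in the first week. Each clone fitted alone gave 12 calls for A3 late, 8 for A3 and 0 for D5 in the first week, and 1 for D5 against ES. The replicate block gave 1 call for the KO in the Cast line on days 2 to 7 (Hoxd8), 0 between the WT lines, 1 for Cast WT in the first week and 4 between D5 and G6, the pair whose numbers match on each day. A crossed replicate block, added after seeing the data because numbers of Dom WT and A3 ran against each other, gave 1 call for the KO (Hoxb1); the block as numbered gave 0.

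Leaving out each replicate gave 0 to 2 calls between WT lines on days 2 to 7 and 2 to 4 between D5 and G6. Late against days 5 and 7 it gave 20 to 28 in Dom WT, 13 to 27 in A3, 26 to 27 in Cast WT, 24 to 30 in D5 and 21 to 23 in G6. In the first week it gave 1 in Dom WT, 2 to 21 in A3 (2 without day 7 replicate 2; 11 to 13 without either replicate of day 2 or 3), 1 to 3 in Cast WT (1 without replicate 1 of day 2 or 3, day 3 replicate 2 or day 7 replicate 3), 0 to 3 in D5 (0 without day 2 replicate 2 or day 7 replicate 1, 1 without day 3 replicate 1) and 5 to 10 in G6 (5 without day 2 replicate 1 or day 7 replicate 1), and against ES 0 to 1 in A3 (1 without day 3 replicate 1), 0 to 6 in D5 (0 without ES replicate 2, 3 without either replicate of day 3, 4 without day 2 replicate 2) and 0 in G6. The change of Hoxb3 in D5 against ES was −5.45 without ES replicate 1 and reversed without ES replicate 2 (3.15). All KO, late WT line and late D5 against G6 counts stayed 0. The replicate number contrasts were not run with a replicate left out, and the summed level of G6 in ES was 3.97 RPM with TMM library sizes. Values near the floor of 3 fragments limit every statement on ES and days 2 to 7.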
